A study of Rattus norvegicus with 9 samples.

Results

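The cytosolic ribosomal protein genes encode the proteins that, together with ribosomal RNA, build the large (60S) and small (40S) subunits of the ribosome outside mitochondria. Their levels were read from RNA-seq of the left ventricle of Sprague-Dawley rats. A gene belonged to the set when its name was Rpl or Rps followed by a number, with at most 1 of the letters a, x, y or l after it, or was Rplp0, Rplp1, Rplp2 or Rpsa. The transcripts of a gene name were summed, and a mean level of at least 1 CPM (read counts scaled to a common library total) over the 9 libraries was required. Of 22608 gene names, 81 met the name rule and 79 were kept, 47 of the large and 32 of the small subunit. The 2 names left out were Rpl39l and Rpl35a. All 79 passed the filter on low counts and were tested.

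All groups were left ventricle of rats aged 8 weeks plus 28 days, with 3 libraries each. The saline group received saline for 28 days. The Ang II group received angiotensin II, the vasoconstrictor of the renin-angiotensin system, given in rodents to bring on cardiac fibrosis. The Ang II+NaBu group received angiotensin II together with sodium butyrate, a product of gut bacteria known as a histone deacetylase inhibitor. The labels give no dose, sex or route or whether each library is a different rat, so p-values measure the spread between libraries, which may be technical. The Ang II+NaBu libraries carry the numbers 2, 4 and 6.

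Ribosomal protein genes are expressed in every cell and are usually made in near-equal protein amounts, since each ribosome holds a single copy of most of them. Their messenger RNAs commonly begin with a C followed by a run of pyrimidines, the 5′ terminal oligopyrimidine tract, through which mTORC1 controls their translation by way of Larp1. The heart and skeletal muscle also express Rpl3l, a muscle paralog that can take the place of Rpl3 in the large subunit.

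The start sites were set beside the annotation because the tract is a feature the name rule did not use. RefSeq windows on the rat build GRCr8, from 250 bases before to 50 after the annotated start, matched 63 of the 79 genes. In 23 of these (36.5%) the first transcribed base was C and the next 4 were C or T, against 2.63% of all 33469 windows. The first base was C in 52.4% of the matched genes and in 24.1% of all windows. The sequence CCGGAAG, the core bound by ETS factors, searched on both strands of the 300-base window, stood in 20 of the 63 (31.7%) and in 8.75% of all windows; a match is a description of letters and not a site. Below are 30 bases around the annotated start for genes the results turn on, 5′ to 3′, with 15 bases on each side of the start. Capitals mark the pyrimidine run from the first transcribed base where the tract was present, and otherwise only the first transcribed base.
Rpl17: tagccttcgcgcttcCTCTTCCTgttagcg
Rplp1: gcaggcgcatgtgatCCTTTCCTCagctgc
Rps18: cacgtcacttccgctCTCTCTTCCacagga
Rpl13: ctttgcggtgcccgaTcctttccgctcggc
Rps28: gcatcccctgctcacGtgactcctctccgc
Rpl3: ccagcgcctgctcgaTctctatcggcggcg
Rpl3l: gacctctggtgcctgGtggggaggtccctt

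These windows lie at chr18:70856261-70856290 (plus strand) for Rpl17, chr8:71290858-71290887 (minus) for Rplp1, chr20:4933730-4933759 (plus) for Rps18, chr19:68062499-68062528 (plus) for Rpl13, chr7:15311319-15311348 (minus) for Rps28, chr7:113507976-113508005 (minus) for Rpl3 and chr10:14258431-14258460 (plus) for Rpl3l, each spanning the promoter and the first exon. The start of Rpl13 was annotated 1 base before a pyrimidine run that begins with C, so it did not count as a tract. Rpl3 began with T and a short pyrimidine run, and Rpl3l with G.

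Total estimated counts ran from 29284780 to 49865446 per library. The ribosomal protein genes took between 0.870% (saline replicate 3) and 1.05% (Ang II+NaBu replicate 6) of the counts. Saline replicate 2, at 0.999%, was above Ang II+NaBu replicates 2 and 4 (0.940% and 0.998%). Ribosomal RNA, mitochondrial rows included, took between 7.99% (Ang II+NaBu replicate 6) and 18.8% (saline replicate 3). Most of it was the mitochondrial row mt-Rnr2, at 2651665 to 5183660 unscaled counts. Rn18s, the 18S RNA of the cytosolic ribosome, was at 46356 to 655847 unscaled counts with saline, 58994 to 458093 with Ang II and 553982 to 679813 with butyrate. Its part in the results was not tested. Saline replicate 2 stood apart: the 9 atrial myocyte markers summed to 5980 CPM in it and to between 89.6 and 337 CPM in the other 8 libraries, and its 8 ventricular markers to 46300 CPM against 62300 to 76600. Levels below are in CPM of the library total after TMM scaling. Transcript lengths were not used, so levels are compared between libraries and not between genes.

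Over the 9 libraries 75 of the 79 genes averaged above 20 CPM. The ribosomal protein genes varied less between libraries than the genes tested as a whole. Their median coefficient of variation over the 9 libraries was 13.8%, against 18.9% for all 15467 genes tested, and their median SD within groups was 0.159 on the log2 scale, against 0.217. The median of their mean levels was 112 CPM. They were not set beside genes of like level, so the part of level in the lower spread was not tested. The highest library was less than 1.5 times the lowest for 36 genes and less than 2 times for 71. The widest ranges were those of Rplp2 (2.97 times), Rpl3l (2.86), Rpl3 (2.46) and Rpl23 (2.40). Rpl23, a large subunit protein that can bind the p53 regulator Mdm2, was at 152 CPM in saline replicate 3 and between 63.3 and 97.8 CPM in each other library.

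Some rows were at or near 0, and others held only part of a gene's reads. Rpl8, a large subunit protein that every cell uses, was listed at 0 in 6 of 9 libraries and at 8.37, 12.4 and 8.25 CPM in saline replicates 1 and 3 and Ang II+NaBu replicate 4, so no fold is given for it. Rplp2, a stalk protein, was between 0.766 and 2.27 CPM. By RefSeq symbol no other row was paired with Rpl8 or Rplp2, and the reason for their low values is not known. The current RefSeq table pairs the accession listed as the unnamed locus LOC103689992 with Rps9. That row held 34.6 to 45.6 CPM of the unscaled totals, and adding it raised Rps9 from a range of 40.6 to 55.7 to one of 78.2 to 102 CPM. Likewise LOC100359498, paired with Rpl35a, held 5.58 to 16.7 CPM where the row named Rpl35a averaged under 1 CPM. Rat ribosomal protein genes have many processed copies, and the sources used here do not say how reads shared between copies were counted, so single levels are uncertain.

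**Figure D1:**
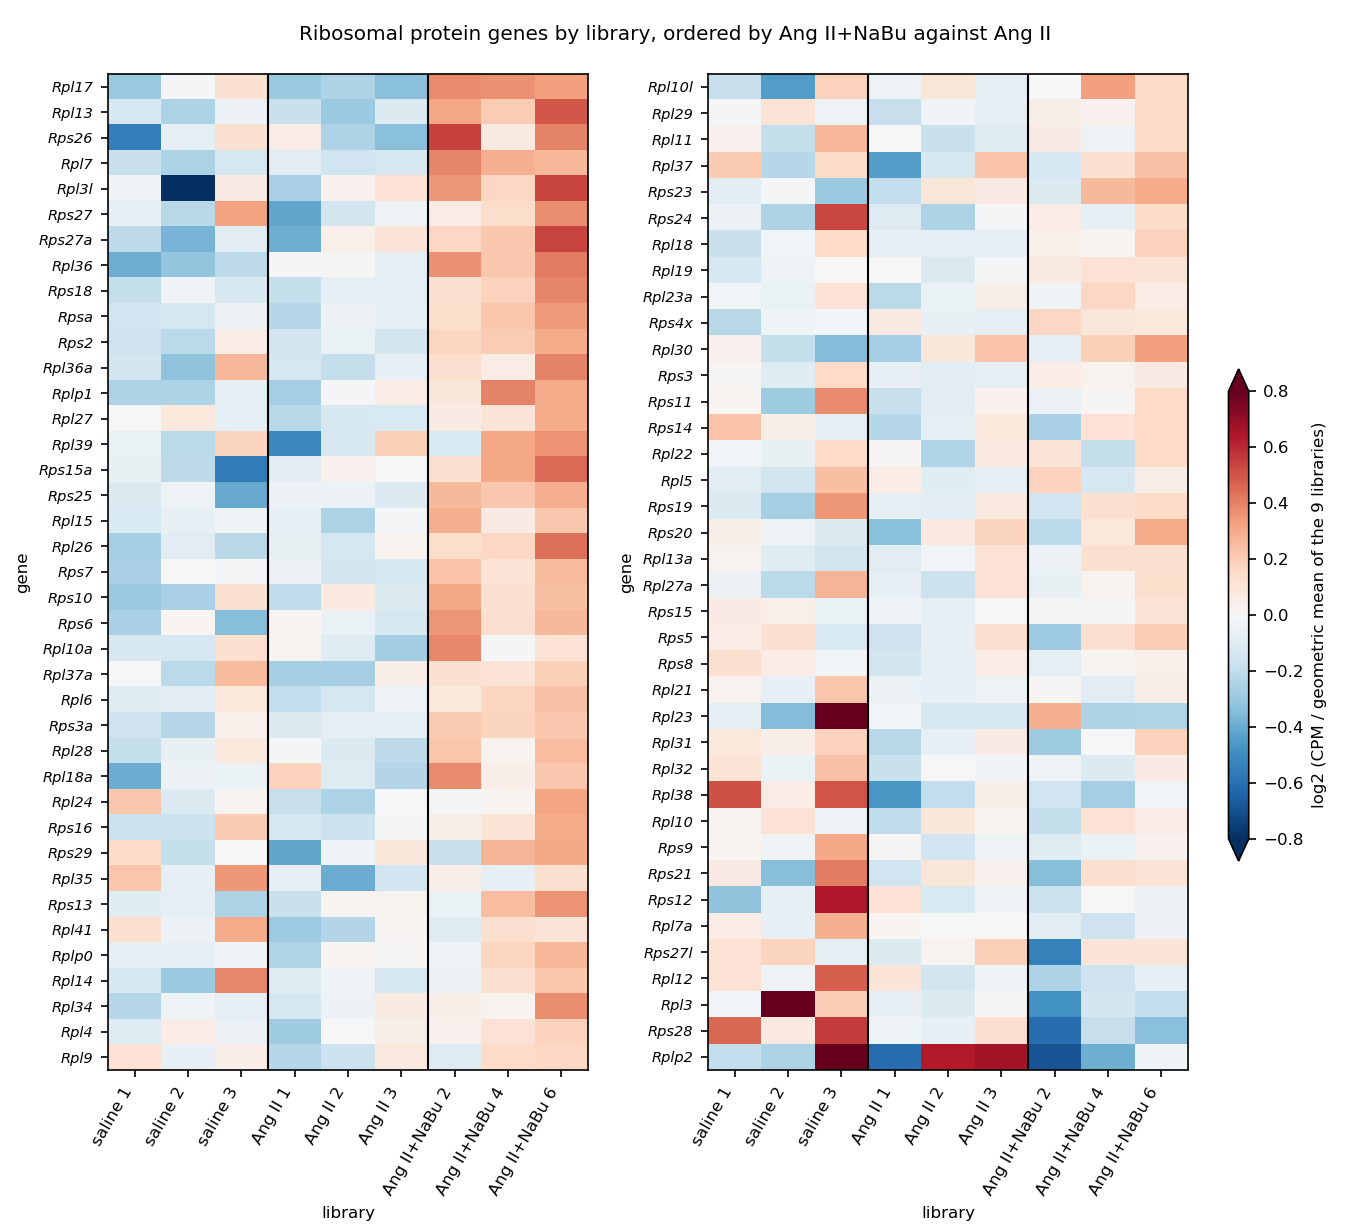
Heat map of 77 ribosomal protein genes (rows, in 2 panels) in 9 libraries (columns); colour is the log2 of the CPM over the geometric mean of the 9 libraries, with values beyond ±0.8 shown in the end colours. Rpl8, listed at 0 in 6 libraries, and 1 gene not reported here are left out. Rows are ordered by the difference between Ang II+NaBu and Ang II, so that order is not a finding; in saline replicate 2 Rpl3 is high (132 CPM) and Rpl3l low (61.5 CPM).

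Ang II against saline shows the hormone without butyrate. No ribosomal protein gene was called in either direction with edgeR's quasi-likelihood test at a Benjamini-Hochberg adjusted p under 0.05, where the background was 0.0% of 15467 genes. At an unadjusted p under 0.05 1 of 79 was higher (1.27%, against 2.44% of all genes) and 6 were lower (7.59%, against 3.49% of all genes). Rpl8, with its zeros, was among the 6. DESeq2 called 0 as higher (background 0.149%) and 1, Rpl8, as lower (background 0.22%). The median log2 difference was -0.06 over the 79 genes and 0.00 over all genes, and 56 of the 79 were lower. Without saline replicate 3, the library with the highest level of 23 of the genes, the median was 0.01, and without saline replicate 2 it was -0.12, with 21 of 79 higher. With scaling by total count it was 0.00, with 39 higher, while the median of all genes was 0.05. Here edgeR called 0 of the cell type markers. With Ang II, 0 of 10 fibroblast (median log2 -0.48), 0 of 8 macrophage, 0 of 9 atrial and 0 of 4 smooth muscle markers were higher. Of the others, 4 of 8 ventricular, 7 of 8 endothelial, 7 of 10 lymphocyte and 8 of 8 erythroid markers were higher. Saline replicate 2 had the highest level of 6 fibroblast, 6 macrophage, 9 atrial and 4 smooth muscle markers. Their part was not tested.

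Apart from Rpl8, the lowest differences were those of Rpl38, Rpl3 and Rpl35. Rpl38, a small large-subunit protein linked to the translation of Hox messenger RNAs in embryos, was at 54.8, 40.1 and 54.6 CPM in saline replicates 1, 2 and 3 and at 27.8, 33.5 and 39.7 CPM in Ang II replicates 1, 2 and 3. The groups did not overlap, by a margin of less than 1 CPM, and the log2 difference was -0.56 (SE 0.157, edgeR adjusted p = 0.719). It was at 34.4, 31.9 and 37.8 CPM in the Ang II+NaBu libraries, within the range of the Ang II libraries.

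Rpl35, which lines the mouth of the exit tunnel for new peptides, averaged 62.9 ± 8.85 CPM with saline and 48.4 ± 5.53 CPM with Ang II (SD, n = 3; log2 -0.38, SE 0.128, edgeR adjusted p = 0.743), with the nearest libraries at 53.2 and 53.0 CPM. The highest differences were those of Rpl36 (0.28, SE 0.091), Rps15a (0.24, SE 0.136), Rpl3l (0.21, SE 0.236) and Rpl30 (0.19, SE 0.157), none of which passed the test. Rpl36 was the only gene with every Ang II library above every saline library (1.27%; 4.94% of all genes), and Rpl27, Rpl35 and Rpl38 were the 3 with every Ang II library below (3.8%; 4.97% of all genes). The log2 difference of Rpl3l was -0.06 without saline replicate 2.

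The comparison of Ang II+NaBu with Ang II asks what butyrate added to the hormone. Ribosomal protein genes were mostly a little higher with butyrate: 71 of 79 had a log2 difference above 0, against 47.3% of all genes, and the median was 0.19 (1.14-fold) against -0.02 for all genes. Of the 79, 3 rose (3.8%) and 0 fell with edgeR, where 0.647% of all genes rose and 0.957% fell; DESeq2 also called 0 as lower (background 4.22%). At an unadjusted p under 0.05, 24 were higher and 1 was lower (30.4% and 1.27%, against 11.3% and 11.1% of all genes). Rpl8, with its zeros, was among the 24. All 3 libraries with butyrate were above all 3 without it for 33 genes (41.8%; 18.1% of all genes) and below for 3 genes, Rpl3, Rpl7a and Rps28 (3.8%; 17.5% of all genes). The medians were alike for the large subunit (0.19 over 47 genes, 43 higher) and the small (0.20 over 32 genes, 28 higher).

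**Figure D2:**
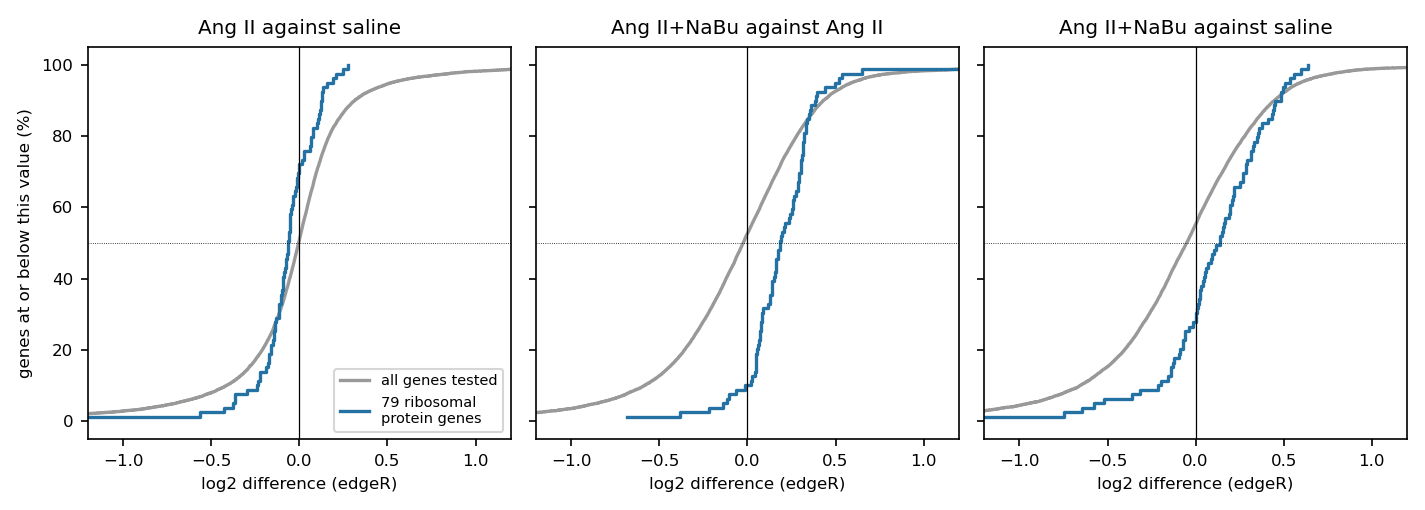
Cumulative share of genes (%, vertical axis) at or below each log2 difference (horizontal axis, shown from -1.2 to 1.2) in the 3 comparisons, for the 79 ribosomal protein genes and all genes tested. The curve of the ribosomal protein genes lies to the right of the other through its middle for Ang II+NaBu against Ang II (medians 0.19 and -0.02) and close to it for Ang II against saline (-0.06 and 0.00).

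The 3 that rose all belong to the large subunit. Rpl17, which lines the exit tunnel and whose start carried the tract shown above, was at 99.6, 103 and 97.1 CPM in Ang II replicates 1, 2 and 3 and at 159, 158 and 154 CPM in Ang II+NaBu replicates 2, 4 and 6. The libraries of each group lay within a few CPM of each other, and the log2 difference was 0.65 (SE 0.11, edgeR adjusted p = 0.0415). In saline it was at 99.7, 121 and 133 CPM, with replicate 1 inside the Ang II range and all below the butyrate libraries.

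Rpl13 was at 63.2, 58.1 and 66.1 CPM with Ang II and at 88.7, 82.4 and 101 CPM with butyrate (log2 0.54, SE 0.106, edgeR adjusted p = 0.0439). Its saline values, 65.3, 60 and 69.2 CPM, covered nearly the same range as the Ang II values. Rpl7 was at 253, 241 and 246 CPM with Ang II, at 353, 329 and 323 CPM with butyrate (log2 0.44, SE 0.0874, edgeR adjusted p = 0.0445) and at 238, 226 and 244 CPM with saline. For both genes the butyrate libraries stood above all 6 others. No start window was matched for Rpl7.

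Leaving Rpl8 aside, Rps26 had the largest difference among the higher genes that did not pass the test. Mutations in it are a known cause of Diamond-Blackfan anaemia. Rps26 was at 117, 94.6 and 89.1 against 164, 118 and 148 CPM, where the closest libraries differed by about 1 CPM (log2 0.52, SE 0.185, edgeR adjusted p = 0.144). Of 16 genes listed for that anaemia, Rpl35a among them, 15 were higher with butyrate, with a median of 0.30. Rpl35a counted as higher on its row of under 1 CPM (log2 0.45, SE 0.796). With the unnamed locus paired with it added, it was at -0.06 (SE 0.316) and would count as lower. For the 16 genes edgeR called 0, with 8 higher and 1 lower at an unadjusted p under 0.05. The share that was higher was 93.8%, beside 89.9% of the ribosomal protein genes and 47.3% of all genes, and 8 of the 16 were higher at that p, beside 30.4% and 11.3%; the difference between these shares was not tested.

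At the other end, Rps28, a small protein of the small subunit, was at 31.7, 30.9 and 35.6 CPM with Ang II and at 21.2, 28.5 and 25.7 CPM with butyrate (log2 -0.38, SE 0.148, edgeR adjusted p = 0.17). Rplp2 (-0.68, SE 0.487) had a lower log2 difference but is measured at about 1 CPM. Rpl3 (-0.22, SE 0.189), Rpl12 (-0.14, SE 0.134), Rps27l (-0.12, SE 0.196), Rpl7a (-0.11, SE 0.103), Rps12 (-0.06, SE 0.205) and Rps21 (-0.01, SE 0.192) were the other members at or below 0, none of them past the test. Rps27l, the p53-induced paralog of Rps27, was at 7.20, 7.96 and 8.89 against 5.36, 8.41 and 8.37 CPM, while Rps27 was at 37.5, 45.2 and 48.7 against 52.1, 55.2 and 64.7 CPM (log2 0.39, SE 0.156, edgeR adjusted p = 0.183). The libraries overlapped for the paralog and did not for Rps27.

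None of the members with a well-known separate role described next passed the test, and their log2 differences ran from 0.08 to 0.38. Rps6, the substrate of the S6 kinases, was at 130, 123 and 117 CPM with Ang II and at 163, 140 and 153 CPM with butyrate (log2 0.30, SE 0.113, edgeR adjusted p = 0.157). Rpsa, also known as a laminin receptor, was at 195, 221 and 216 against 251, 266 and 289 CPM (log2 0.35, SE 0.0971, edgeR adjusted p = 0.0841), and Rps27a, made as a fusion with ubiquitin, was at 70.8, 95.6 and 99.9 against 104, 108 and 135 CPM (log2 0.38, SE 0.152, edgeR adjusted p = 0.181). For these 3 genes no library with butyrate fell within the Ang II range. Rpl5 and Rpl11, which with 5S ribosomal RNA bind Mdm2, were at 0.08 (SE 0.128) and 0.16 (SE 0.122), Rps19 was at 0.08 (SE 0.155), and their libraries overlapped. In the stalk of the large subunit, which recruits translation factors, Rplp0 was at 265, 316 and 315 against 305, 353 and 376 CPM (log2 0.21, SE 0.111) and Rplp1 at 112, 134 and 141 against 144, 178 and 166 CPM (log2 0.33, SE 0.12).

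Several members serve as reference genes for quantitative PCR, which presumes equal levels between groups. Of 13 listed, 12 were higher with butyrate and 1, Rpl7, rose. The shares were 92.3% and 7.69%, beside 89.9% and 3.8% of all the ribosomal protein genes and 47.3% and 0.647% of all genes. Their median of 0.19 was that of the ribosomal protein genes as a whole. Rps18 was at 135, 146 and 146 against 168, 175 and 202 CPM, with no overlap (log2 0.35, SE 0.099, edgeR adjusted p = 0.087), whereas Rpl32 (0.05, SE 0.103), Rpl13a (0.07, SE 0.0999) and Rps9 (0.02, SE 0.107) overlapped. Among the 63 genes with a start window, the median difference was 0.24 for the 23 with the tract, all of them higher, and 0.16 for the 40 without it, of which 32 were higher; the 16 genes with no window had a median of 0.22. This split was not tested, and it follows the annotated start. Rps10 and Rps23, annotated at a T inside a pyrimidine run, counted as without the tract, and so did Rplp2, measured at about 1 CPM.

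The calls depended on single libraries. None of the 3 remained without any single Ang II or Ang II+NaBu library, which left 0 in each of the 6 fits, and 1 remained without saline replicate 1. In those 6 fits 1 to 3 of all genes rose (0.00634% to 0.019%), and without saline replicate 1 it was 0.0633%. The log2 differences stayed near their size over the 9 fits that left out a library, at 0.64 to 0.70 for Rpl17, 0.45 to 0.60 for Rpl13 and 0.40 to 0.47 for Rpl7. There were 13 rises without saline replicate 2 (background 6.16%), 4 without saline replicate 3 (background 1.71%), 14 with only the 2 groups in the fit (background 7.12%) and 17 with DESeq2 (background 5.57%; Rpl8, with its zeros, among them), each including the 3. The median stayed between 0.14 and 0.25 over the fits that left out a single library. Scaling by total count, which put the median of all genes at -0.13, gave 0.08 for the ribosomal protein genes, 54 of 79 higher and 0 called.

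Other measures moved with this comparison. Ang II+NaBu replicate 6, the deepest library, had the highest level of 37 of the 79 genes, and the per-library medians of the log2 ratio to the 9-library mean were 0.04, 0.11 and 0.19 in Ang II+NaBu replicates 2, 4 and 6 and -0.14, -0.08 and -0.01 in Ang II replicates 1, 2 and 3. The 8 ventricular myocyte markers summed to 67000 to 74900 CPM with butyrate and 62300 to 63700 CPM with Ang II, with 7 of 8 higher. The 8 endothelial markers summed to 1360 to 1570 against 1620 to 1860 CPM (0 of 8 higher, 1 called), the 10 lymphocyte markers to 12.6 to 13.6 against 16.9 to 19.8 CPM (2 of 10 higher), and the 8 erythroid markers to 2130 to 2710 against 2390 to 4210 CPM (0 of 8 higher). The 10 fibroblast markers summed to 2770 to 3450 against 2780 to 2960 CPM, the 8 macrophage markers to 211 to 237 against 196 to 222 CPM and the 4 smooth muscle markers to 252 to 353 against 341 to 434 CPM. No listed marker was at 0 in all libraries. In bulk tissue a change in the number of cells of a type and a change in RNA per cell cannot be told apart, and the part of these measures in the result was not tested.

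The comparison of Ang II+NaBu with saline shares its libraries with the other comparisons, so its values are not independent of theirs. Of the 79 genes 6 rose (7.59%; 3.01% of all genes) and 1 fell (1.27%; 2.05% of all genes). The median log2 difference was 0.14 against -0.05 for all genes, and 57 were higher (44.7% of all genes). The per-library medians of the log2 ratio to the 9-library mean were -0.07, -0.07 and 0.08 in saline replicates 1, 2 and 3. The last was above the 0.04 of Ang II+NaBu replicate 2. All 3 libraries with butyrate were above all saline libraries for 25 genes (31.6%; 14.5% of all genes) and below for 4, Rpl3, Rpl12, Rpl38 and Rps28 (5.06%; 14.1% of all genes). The genes that rose were Rpl7, Rpl13, Rpl26 and Rpl36 of the large subunit and Rps15a and Rps25 of the small. Cell type markers differed in this comparison too: 0 of 9 atrial (1 called), 0 of 10 fibroblast (median log2 -0.40), 0 of 8 endothelial (1 called), 0 of 4 smooth muscle (median -0.81), 1 of 8 macrophage, 3 of 10 lymphocyte, 6 of 8 erythroid (1 called) and 6 of 8 ventricular markers were higher with butyrate. Fibroblast markers summed to 2770 to 3450 CPM with butyrate and 2860 to 4720 CPM with saline, endothelial to 1360 to 1570 against 1560 to 1900 CPM, smooth muscle to 252 to 353 against 250 to 840 CPM and atrial to 127 to 226 against 172 to 5980 CPM. Their part in the result was not tested.

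Rpl36 had the largest rise. It was at 39.0, 41.0 and 44.1 CPM with saline, 50.5, 51.3 and 48.5 CPM with Ang II and 65.8, 59.3 and 67.8 CPM with butyrate, so that no group overlapped another. Its log2 difference to saline was 0.64 (SE 0.0911, edgeR adjusted p = 0.013). Rps15a was at 121, 109 and 85.6 CPM with saline and 137, 156 and 173 CPM with butyrate (log2 0.56, SE 0.136, edgeR adjusted p = 0.0447). Rps25, which binds viral internal ribosome entry sites, was at 141, 149 and 116 CPM with saline and 183, 178 and 187 CPM with butyrate (log2 0.44, SE 0.104, edgeR adjusted p = 0.0429). For both small subunit genes saline replicate 3 was the lowest library.

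Rpl26, known for promoting the translation of p53, was at 156, 177 and 161 CPM with saline and 207, 211 and 255 CPM with butyrate (log2 0.44, SE 0.109, edgeR adjusted p = 0.0476). Rpl7 (0.51, SE 0.0874, edgeR adjusted p = 0.0202) and Rpl13 (0.48, SE 0.106, edgeR adjusted p = 0.0356) have their library values above. Rpl17, which rose against Ang II, was at 0.41 (SE 0.11, edgeR adjusted p = 0.0577). Rps28 was the only gene that fell, from 44.6, 34.2 and 47.7 CPM to 21.2, 28.5 and 25.7 CPM (log2 -0.74, SE 0.148, edgeR adjusted p = 0.029), with the Ang II libraries above butyrate and overlapping saline. Rpl38 (-0.52, SE 0.157, edgeR adjusted p = 0.0781) was lower in every butyrate library without passing.

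These calls depended on the fit. There were 3 rises with upper-quartile scaling and 2 with scaling by total count, for which the share of all genes called is not given here. With DESeq2 there were 20 (background 7.97%, with 3 falls against 4.89%), and with only the 2 groups 0 (background 0.0331%). Leaving out saline replicate 1, 2 or 3 gave 3, 5 and 10 (backgrounds 1.47%, 1.86% and 4.86%). There were 2 without Ang II replicate 2 or 3 (background 0.874% and 0.909%), 0 without Ang II+NaBu replicate 2 or 6 (0.0317% and 0.019%), and 1 without Ang II+NaBu replicate 4 (0.432%). The count without Ang II replicate 1, where the background was 2.79%, is not given here. Rps28 lost its call with only the 2 groups (edgeR adjusted p = 0.088), without saline replicate 1 (0.0569), without Ang II replicate 2 (0.0644) or 3 (0.0619), and without Ang II+NaBu replicate 2 (0.0945), 4 (0.059) or 6 (0.12), while its log2 difference stayed between -0.86 and -0.63 over the fits without single libraries. Of the 79 genes, 58 were higher with DESeq2, 49 with upper-quartile scaling and 47 with scaling by total count.

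**Figure D3:**
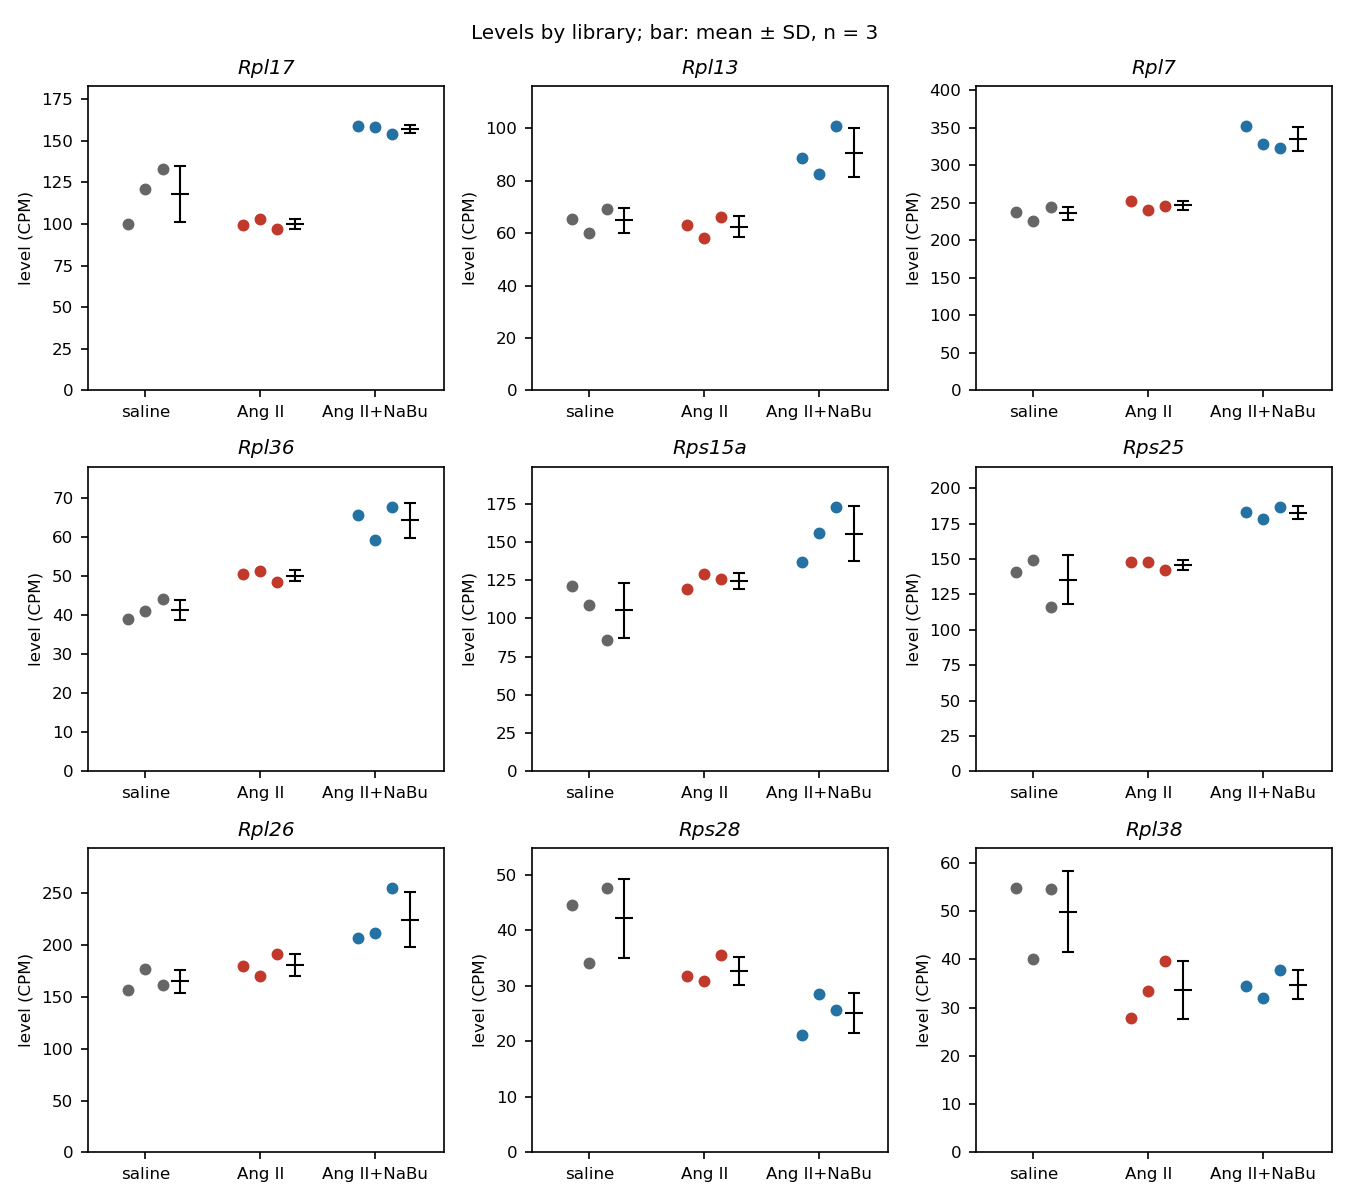
Levels (CPM, vertical axes from 0) of 9 ribosomal protein genes in saline, Ang II and Ang II+NaBu; each point is a library and the bar beside it is the mean ± SD of 3. For Rpl17, Rpl13 and Rpl7 the butyrate libraries lie above all others, for Rpl36 the 3 groups do not overlap, and for Rps28 the butyrate libraries are the lowest.

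The paralogs Rpl3 and Rpl3l differed with opposite signs. Rpl3, a core large subunit protein near the peptidyl transferase centre, was at 74.1, 132 and 86.1 CPM in saline replicates 1, 2 and 3, at 71.7, 69.7 and 75.7 CPM with Ang II and at 53.6, 67.7 and 65.5 CPM with butyrate. Every butyrate library was below every other library. Rpl3l was at 119, 61.5 and 127 CPM with saline, at 101, 124 and 131 CPM with Ang II and at 154, 136 and 176 CPM with butyrate, so that every butyrate library was above every other. Neither gene passed the edgeR test over all 9 libraries in any comparison. For butyrate against saline the log2 difference was -0.64 for Rpl3 (SE 0.189, edgeR adjusted p = 0.0738) and 0.60 for Rpl3l (SE 0.237, edgeR adjusted p = 0.154). Without saline replicate 2 these were -0.35 (edgeR adjusted p = 0.134) and 0.35 (0.181). DESeq2 called both (adjusted p = 0.0133 for Rpl3 and 0.0488 for Rpl3l), and edgeR called Rpl3 without saline replicate 1 (-0.81, adjusted p = 0.0477).

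The ratio of Rpl3l to Rpl3 counts within a library does not depend on scaling between libraries. On the log2 scale it was 0.68, -1.10 and 0.56 with saline, 0.49, 0.83 and 0.79 with Ang II and 1.52, 1.01 and 1.43 with butyrate. It averaged 1.32 ± 0.271 with butyrate and 0.70 ± 0.187 with Ang II (SD, n = 3), a difference of 0.62 (1.53-fold) with no overlap. The two-sided exact permutation test gave p = 0.1, the smallest that 3 against 3 libraries allow, and 0.15 adjusted over the 3 comparisons. Against saline (0.05 ± 0.995) the difference was 1.27 with the same exact p = 0.1, and Ang II differed from saline by 0.65 (exact permutation p = 0.3).

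Saline replicate 2 was the only library with more Rpl3 than Rpl3l counts, 4949 against 2311. It is also the library with 5980 CPM of atrial markers, the highest fibroblast sum (4720 CPM against 2770 to 4000) and the lowest ventricular sum; the part of these in its ratio was not tested. Without it the ratio differed by 0.08 between Ang II and saline and by 0.70 between Ang II+NaBu and saline. The comparison with Ang II does not use that library and ranged from 0.51 to 0.77 when single libraries were left out. The summed level of both paralogs ran from 172 CPM (Ang II replicate 1) to 241 CPM (Ang II+NaBu replicate 6). Rpl3l held 58.4% to 64.0% of their summed counts with Ang II and 66.8% to 74.1% with butyrate. Transcript lengths were not used, so these shares and ratios serve to compare libraries. They do not give which paralog was the more abundant.

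**Figure D4:**
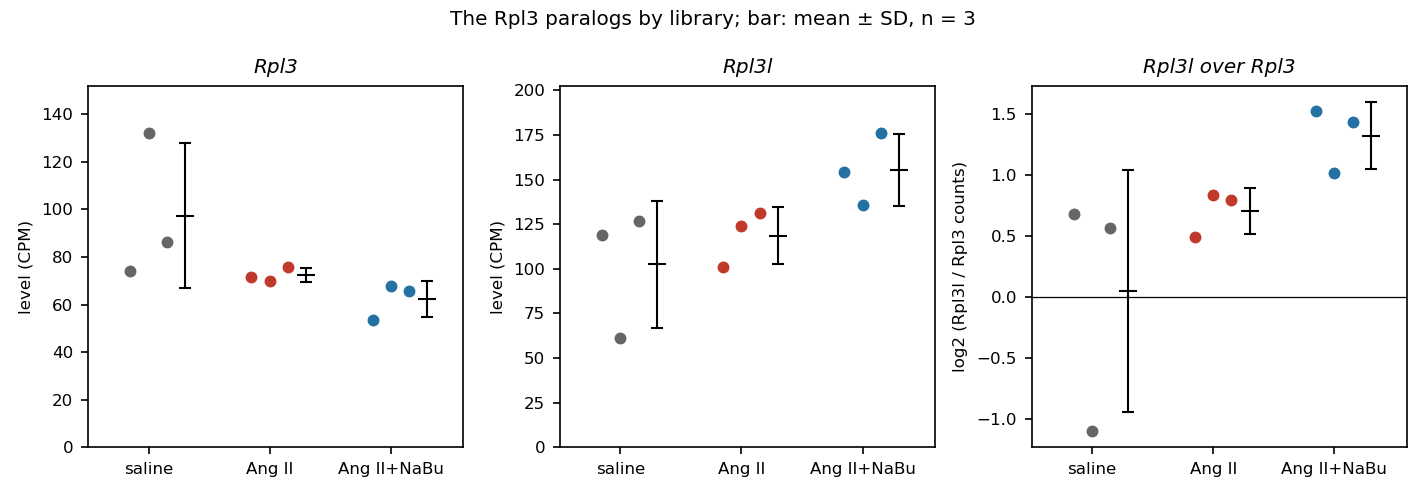
Levels of Rpl3 and Rpl3l (CPM, axes from 0) and the log2 ratio of Rpl3l to Rpl3 counts in each library of the 3 groups, with mean ± SD of 3 beside the points. The saline point at a log2 ratio of -1.10 is replicate 2, and the butyrate points, from 1.01 to 1.52, lie above all others.

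Rpl22l1, the paralog of Rpl22, was at 6.83, 11.5 and 15.1 CPM with Ang II and 9.33, 15.2 and 22.7 CPM with butyrate (log2 0.50, SE 0.349, edgeR adjusted p = 0.434), and Rpl22 at 39.7, 33.3 and 41.6 against 42.3, 34.5 and 44.0 CPM (log2 0.08, edgeR adjusted p = 0.767). Both overlapped between the groups. Rpl36al was higher in each butyrate library, at 25.8, 30.0 and 27.8 against 36.6, 39.4 and 38.4 CPM (0.45, SE 0.192, edgeR adjusted p = 0.203), and so was Rpl36a (0.33, SE 0.152). Rpl7l1, a nucleolar relative of Rpl7, was at 0.13 (SE 0.0969), Rpl10l, a paralog known from the testis, at 0.17 (SE 0.182) beside 0.03 (SE 0.117) for Rpl10, Rpl39 at 0.32 (SE 0.189), and Rps4y2 at 0.07 (SE 0.233) beside 0.14 (SE 0.096) for Rps4x. None of these passed the test.

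Genes that work with the ribosome were counted on listed groups. Of 25 translation factors and other messenger RNAs of the tract class, 21 were higher with butyrate than with Ang II (median 0.12) and edgeR called 0, with 5 higher and 0 lower at an unadjusted p under 0.05. Against saline 17 were higher (68.0%; 44.7% of all genes) and 2 rose (8.0%; 3.01% of all genes). These were Eif4a2, an RNA helicase of initiation, from 279, 231 and 240 to 343, 370 and 376 CPM (log2 0.54, SE 0.111, edgeR adjusted p = 0.0305), and Tpt1, a growth-related protein and classic member of the class, from 886, 885 and 940 to 1270, 1200 and 1260 CPM (0.46, SE 0.091, edgeR adjusted p = 0.0277). Eef1a1, the elongation factor that delivers tRNAs, was at the low end, at -0.15 (SE 0.179) against Ang II. Rack1, a protein of the small subunit outside the name rule, was at 0.27 (SE 0.146), and Fau, a fusion protein that yields a small subunit protein, at 0.04 (SE 0.136).

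Ribosome assembly factors divided in direction. Of 58 tested, 41 were higher with butyrate than with Ang II (70.7%, against 47.3% of all genes), with a median of 0.10, and edgeR called 0. At an unadjusted p under 0.05, 8 were higher and 3 lower (13.8% and 5.17%, against 11.3% and 11.1% of all genes), so the share higher lay near that of all genes. Against saline 31 were higher and 27 lower (median 0.02). There 2 rose and 1 fell, shares of 3.45% and 1.72% that lie near the 3.01% and 2.05% of all genes. The called genes are named for their own values. Ddx21, a nucleolar helicase, rose from 46.6, 45.9 and 43.4 to 65.0, 61.2 and 67.0 CPM (log2 0.51, SE 0.0854, edgeR adjusted p = 0.0201), and Nmd3, the export adaptor of the large subunit, from 34.2, 24.4 and 33.8 to 46.2, 41.7 and 49.7 CPM (0.57, SE 0.137, edgeR adjusted p = 0.0424). Noc2l fell from 32.1, 28.1 and 27.7 to 21.5, 21.7 and 22.7 CPM (-0.42, SE 0.102, edgeR adjusted p = 0.046). Of 20 RNA polymerase I genes, 15 were higher with butyrate than with Ang II (median 0.14), where 47.3% of all genes were higher. The differences ran from Taf1c (-0.50, SE 0.188) to Polr2k (0.49, SE 0.182), and edgeR called 0 in any comparison. At an unadjusted p under 0.05, 2 were higher and 2 lower with butyrate than with Ang II. These shares of 10.0% and 10.0% lay near the 11.3% and 11.1% of all genes.

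In the list of mTORC1 signalling to translation, 25 of 35 genes were higher with butyrate than with Ang II (71.4%, against 47.3% of all genes). The median was 0.13 and 1 rose (2.86%, against 0.647% of all genes). Eif4e, the cap-binding factor, rose from 96.5, 102 and 105 to 156, 139 and 152 CPM (log2 0.56, SE 0.117, edgeR adjusted p = 0.0488), with saline at 102, 77.5 and 102 CPM. Against saline 25 were higher and 5 rose (14.3%; 3.01% of all genes): Eif4e (0.67, SE 0.118), Lamtor1 (0.68, SE 0.154), a lysosomal anchor of the pathway, the kinase Akt1 (0.59, SE 0.128), Sesn1 (0.41, SE 0.0994), an inhibitor of mTORC1, and Larp4b (0.39, SE 0.0846). Mtor was at 0.16 (SE 0.0948) against Ang II, Larp1 at 0.28 (SE 0.109), Rps6kb1 at 0.09 (SE 0.118) and Myc, a transcriptional activator of ribosome genes, at -0.17 (SE 0.166), and none of the 4 passed the test. Between Ang II and saline edgeR called 0 genes of these lists. At an unadjusted p under 0.05, 3 assembly factors (5.17%) and 1 RNA polymerase I gene (5.0%) were lower, beside 3.49% of all genes.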

How the data were processed

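Total RNA of rat left ventricle was extracted with Trizol and sequenced from Illumina libraries, per the labels' protocols. The design text of the series describes another tissue, so groups were taken from the sample labels. The authors deposited estimated counts per transcript, 1 table per group and 1 column per library, per the file headers; effects of group and of table cannot be told apart. A carriage return inside the last saline column was stripped. Values were whole numbers; of those from 8 to 40, 14795 were multiples of 4 and 10626 midway between them, for a reason not stated. The submitters' processing notes name Bowtie 0.12.2 and the mouse build mm8, while transcript IDs are rat RefSeq; the counting tool and its strand setting were not stated in the labels or headers.

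Counts were summed by gene name, filtered (filterByExpr) and compared with edgeR 4.0.16 (TMM, quasi-likelihood test, all 9 libraries in the fit, Benjamini-Hochberg over 15467 genes, adjusted p under 0.05) in R 4.3.3. SE is the log2 difference over the root of the F statistic. DESeq2 1.42.0 was an alternative. The scripts were tested on simulated data. Named genes are called members, the 4 at each end of a comparison, the extremes of level and range, paralogs, members with well-known roles, and list ends or calls; Rpl7a, Rps12, Rps21, Rpl27, Rack1, Larp1, Mtor and Rps6kb1 were added after their values were seen. Single values of 2 genes are not reported here. The members and lists were chosen with earlier results of these data known. RefSeq symbols matched 89 of 101 member transcripts.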

Additional observations from a re-analysis of the deposited data

How the results depend on the processing

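For Ang II against saline DESeq2 called 1 ribosomal protein gene as lower (Rpl8) where edgeR called 0, and the sign turned for Rpl3l without saline replicate 2 (-0.06, to 0.39 over single libraries left out) and, with saline replicates 2 and 3 both left out (chosen after seeing the data), for Rpl3l (-0.01) and Rpl30 (0.00); the cause was not tested. For Ang II+NaBu against Ang II the 3 rises became 17 with DESeq2, 14 with only the 2 groups compared, 12 without saline replicates 2 and 3, and 0 with scaling by total count or with the highest transcript per gene; leaving out single libraries gave 0 to 13. The median of 0.19 was 0.08 with scaling by total count, which also lowered all genes. For Ang II+NaBu against saline the 6 rises became 20 with DESeq2 (7.97% of all genes rose) and 0 with only the 2 groups (0.0331%). They became 3 with upper-quartile scaling, 2 with scaling by total count and 0 with the highest transcript. Single libraries left out gave 0 to 10, where 0.019% to 4.86% of all genes rose. For both scalings and the highest transcript the share of all genes called is not given here. Their counts are therefore not read as a result about these genes. The 1 fall became 3 with DESeq2 (4.89% of all genes fell) and 0 with only the 2 groups or the highest transcript. Without single libraries it became 0 to 2, where 0.019% to 3.38% of all genes fell. Counts were within 1.5 times the reported ones with TMM factors from all other genes, no filter, values divided by 4, ribosomal RNA left out, and rows renamed by RefSeq accession (also chosen after seeing the data). Same-numbered saline and Ang II libraries did not deviate together over the genes tested (correlations -0.004, -0.033 and 0.008). A pairing with little effect over all genes would give such values too, so they do not exclude one. With a replicate block 0 ribosomal protein genes rose, 0 fell and the median was -0.06. For both comparisons with Ang II+NaBu no paired analysis was possible because its columns carry other numbers than the labels. Rplp2, Rpl8, Rps27l and Rpl10l each had a mean under 10 CPM. Counts were lowest for Rplp2 (27 to 85 per library) and 0 in 6 libraries for Rpl8, while Rps27l had 192 to 402 and Rpl10l 222 to 427.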
